A study of Mus musculus with 6 samples.

Results

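The arms of miR-137, miR-138 and miR-129 were followed in small RNA-seq libraries of the embryonic mouse brain. These microRNAs (miRNAs) are known for roles in neuronal differentiation and in the growth of dendrites and synapses. The members were taken by name: mmu-miR-137-3p and mmu-miR-137-5p, mmu-miR-138-5p with its partner arms mmu-miR-138-1-3p and mmu-miR-138-2-3p, and mmu-miR-129-5p with its partner arms mmu-miR-129-1-3p and mmu-miR-129-2-3p. They are 8 of the 1915 mature miRNAs listed in each library, and all 8 were tested, with at least 10 reads in every library.

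Small RNA was sequenced from the whole brain of wild-type C57BL/6 embryos at E15.5. There were 3 libraries of each sex, written F1, F2 and F3 for female libraries 1 to 3 and M1, M2 and M3 for male libraries 1 to 3. The sexes were told apart by testicular cords in the gonad, and the labels name no transgene or treatment in either group. Each library pooled the RNA of 2 to 3 individuals, so the pools are the replicates and errors describe the spread between pools. The comparison asks which of these miRNAs differ in level between the female and the male brain after gonadal sex is set.

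A miRNA is cut by Drosha and Dicer from a hairpin whose 5′ and 3′ sides each give an arm. Usually one arm, the guide, is kept in an Argonaute protein, and its seed (bases 2 to 8 from the 5′ end) pairs with target mRNAs, while the other arm is mostly degraded. miR-137 acts on neural progenitor proliferation and dendrite growth, miR-138 restrains the size of dendritic spines through the depalmitoylating enzyme Lypla1, and miR-129 takes part in synaptic scaling and in the translation of a potassium channel in dendrites.

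The mature sequences are shown because the seed decides which mRNAs an arm can pair with and because base composition recurs in the results. They were taken from RefSeq for 7 of the 8 members, 5′ to 3′, with the seed in capitals. The 7 arms have 7 distinct seeds, and no other mature mouse miRNA in the RefSeq table has any of them. That search did not cover miR-129-1-3p, and the letters of the miR-129-2-3p seed, AGCCCUU, also occur once in the Mir129-1 hairpin, on its 3′ side.
mmu-miR-137-3p: uUAUUGCUuaagaauacgcguag
mmu-miR-137-5p: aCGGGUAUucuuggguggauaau
mmu-miR-138-5p: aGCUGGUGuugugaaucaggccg
mmu-miR-138-1-3p: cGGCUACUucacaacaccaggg
mmu-miR-138-2-3p: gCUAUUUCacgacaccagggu
mmu-miR-129-5p: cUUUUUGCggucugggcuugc
mmu-miR-129-2-3p: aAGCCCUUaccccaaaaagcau

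The hairpins show which locus each arm can report on. The RefSeq hairpins of the 5 loci are given 5′ to 3′, with the arms listed for them in RefSeq in capitals. Positions are in mm9, the build used by the authors, from exact matches of the hairpins to that genome.
Mir137: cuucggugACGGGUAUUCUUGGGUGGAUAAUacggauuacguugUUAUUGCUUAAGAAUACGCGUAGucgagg
Mir138-1: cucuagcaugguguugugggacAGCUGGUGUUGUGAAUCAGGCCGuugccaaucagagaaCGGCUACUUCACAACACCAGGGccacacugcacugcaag
Mir138-2: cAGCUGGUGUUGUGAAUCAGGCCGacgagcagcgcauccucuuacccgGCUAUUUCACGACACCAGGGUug
Mir129-1: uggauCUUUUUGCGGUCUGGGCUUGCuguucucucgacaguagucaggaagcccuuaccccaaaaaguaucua
Mir129-2: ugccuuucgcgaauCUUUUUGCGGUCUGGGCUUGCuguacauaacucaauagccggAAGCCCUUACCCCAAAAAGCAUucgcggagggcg

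Mir137 lies at chr3:118136775-118136847 on the plus strand, 128.2 kb from the nearest protein-coding gene, Dpyd. Mir138-1 lies at chr9:122591994-122592092 on the plus strand, 122.565 kb from D9Ertd402e, and Mir138-2 at chr8:96848211-96848281 on the plus strand, 4.811 kb from Slc12a3. Mir129-1 lies at chr6:28972619-28972691 on the plus strand, 37.529 kb from Lep, and Mir129-2 at chr2:94081521-94081610 on the minus strand, 59.314 kb from Ttc17. In GENCODE vM1, none of the 5 hairpins overlaps another gene, so none is intronic or exonic to a coding gene there. The sequences of miR-138-5p and miR-129-5p each occur in both hairpins of their family, so their reads do not tell the loci apart. The 3p arms differ between loci and can, although miR-129-2-3p also matches the Mir129-1 hairpin with 1 mismatch, miR-138-1-3p the Mir138-2 hairpin with 2 mismatches and miR-138-2-3p the Mir138-1 hairpin with 3. Whether reads of these arms were split between loci was not tested.

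Total counts ranged from 14802675 to 59362011 reads per library. Female library 2 stood apart: it had the most reads, the fewest miRNAs detected (660, against 790 to 915 in the other 5), and only 6.97% of its detected miRNAs had under 100 reads, against 34.8% to 41.0% in the other 5. An estimate of reads per sequenced molecule, based on how many miRNAs went unseen although other libraries held them, was 196 in female library 2 and 14.2 to 28.5 in the other 5. Results that rest on this library are therefore given with and without it.

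The 8 arms together held 0.0864% to 0.125% of the reads of a library. Levels are CPM, read counts scaled to 1000000 reads of the library total. In bulk brain RNA, fewer cells of a type and less RNA per cell cannot be told apart. By mean CPM over the 6 libraries, miR-129-5p ranked 105 among the listed miRNAs, miR-137-3p 260, miR-138-5p 311, miR-129-2-3p 322, miR-129-1-3p 379, miR-138-2-3p 386, miR-137-5p 471 and miR-138-1-3p 491. The levels of miR-129-5p were above those of every other member in all 6 libraries. Neighbours in this order overlapped in their ranges over the 6 libraries, except miR-129-5p with miR-137-3p and miR-138-2-3p with miR-137-5p. Within their families, miR-137-3p made up 85.4% to 94.8% of the reads, miR-129-5p 89.0% to 95.2% and miR-138-5p 52.4% to 85.4%.

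Of the 8 arms, 2 differed between the sexes, miR-137-3p and miR-138-5p, and both were lower in males (edgeR's quasi-likelihood test, Benjamini-Hochberg adjusted p under 0.05). Of all 1120 miRNAs tested, 8.48% were called in either direction and 5.27% were called with the female level higher. Of the 95 calls, 36 were higher in males and 59 in females, a split of 50 and 39 when library size replaced TMM scaling. The 8 arms had at least 10 reads in every library, which many of the 1120 did not. Of the 550 miRNAs that did, tested alone, 97 (17.6%) were called, 68 of them higher in females. miR-137-3p and miR-138-5p were the 2 arms called there too. The median log2 fold change, male over female, was -0.60 over the 8 arms and -0.02 over all miRNAs tested. Over the 550, tested alone, it was -0.15. The female and male CPM values did not overlap for 5 arms: 4 had the higher values in females, where 8.57% of all tested miRNAs did, and 1 had them in males, where 15.4% did. These 2 shares are over all 1120 miRNAs and were not computed for the 550. Without female library 2, 3 of the 8 arms were called, beside 18.3% of the 1110 miRNAs then tested.

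**Figure D1:**
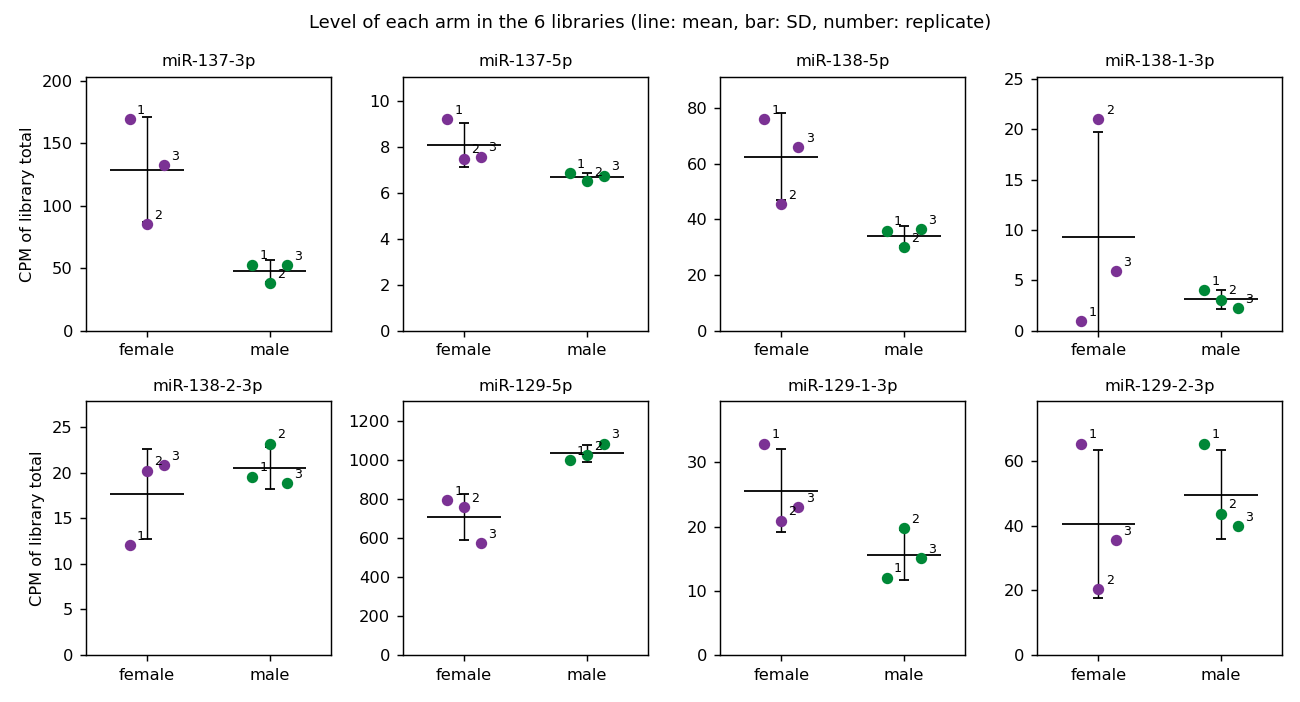
Level of each arm in CPM of the library total (y axis, linear and from 0, a scale of its own for each arm) in the 3 female (purple) and 3 male (green) libraries, numbered by replicate, with the mean (line) and SD (bar, cut at 0 for miR-138-1-3p). The 3 female points of miR-137-3p and miR-138-5p lie above the 3 male points, the male points of miR-129-5p lie above the female points, and female library 2 is highest for miR-138-1-3p, at 20.97 CPM.

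miR-137-3p, the abundant arm of miR-137, had the lowest adjusted p of the 8. Its level was 169 CPM in female library 1, 85.3 in female library 2 and 132 in female library 3. It was 52.8, 37.9 and 52.4 CPM in M1, M2 and M3. The lowest female value was thus above the highest male value, and female library 2 lay nearest to the males. The mean was 129 ± 42.0 CPM in females and 47.7 ± 8.47 in males (SD, n = 3 each), 2.70 times as high in females. The log2 fold change was -1.55 with a standard error (SE) of 0.27 (edgeR's quasi-likelihood test, Benjamini-Hochberg adjusted p = 0.000270). Without female library 2 it was -1.74 ± 0.23 (SE, edgeR adjusted p = 5.3e-10). The call held under all 17 alternative settings tried, leaving out each library included.

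miR-137-5p, the arm on the other side of the same hairpin, did not pass the test. Its level was 9.19, 7.48 and 7.57 CPM in F1, F2 and F3 and 6.85, 6.49 and 6.73 CPM in M1, M2 and M3. All female values were above all male values, but by little: the log2 fold change was -0.40 ± 0.72 (SE, edgeR adjusted p = 0.837). The arm rested on 128 to 444 reads per library. The 444 reads, in female library 2, stand for about 2.27 estimated molecules. The exact Poisson interval of 95% for miR-137-5p reached 17.7% of the value to either side in the library with 128 reads. That interval covers counting error only and not copies of a molecule.

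Because both arms come from 1 hairpin, their ratio within a library does not depend on scaling between libraries. It can still vary with base composition, which differs between the arms (34.8% GC in miR-137-3p, 43.5% in miR-137-5p). With the GC offset described below, the log2 fold changes of the 2 arms were -0.95 and -0.19. What part GC content has in the ratio was not tested. miR-137-3p had 18.3, 11.4 and 17.5 times the reads of miR-137-5p in F1, F2 and F3. In M1, M2 and M3 it had 7.68, 5.84 and 7.77 times the reads. The ratio was higher in every female library than in every male library. In female library 2 the ratio rests on about 25.9 estimated molecules of miR-137-3p and 2.27 of miR-137-5p, the fewest of any library for each arm. The difference in mean log2 ratio, male minus female, was -1.13 (pooled SD 0.31, 2-sided exact permutation test, p = 0.1, adjusted over the 5 ratios tested 0.25). With 3 libraries against 3, the test cannot go below 0.1. Leaving out each library in turn gave -1.35 (without female library 2) to -0.99. Summed over both arms, miR-137 had 178, 92.8 and 139.9 CPM in F1, F2 and F3 and 59.6, 44.4 and 59.2 CPM in M1, M2 and M3, 2.52 times as high in females.

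miR-138-5p, the arm known to act on dendritic spines, was also lower in males. Its level was 76.0, 45.4 and 66.1 CPM in F1, F2 and F3. It was 35.9, 30.1 and 36.5 CPM in M1, M2 and M3. The groups did not overlap, and female library 2 was again the female library nearest to the males. The mean was 62.5 ± 15.6 CPM in females and 34.2 ± 3.54 in males (SD, n = 3 each), 1.83 times as high in females. The log2 fold change was -0.99 ± 0.31 (SE, edgeR's quasi-likelihood test, Benjamini-Hochberg adjusted p = 0.0492), just under the threshold of 0.05. The call held under 8 of 17 alternative settings. Without female library 2 the log2 fold change was -1.13 (edgeR adjusted p = 0.000379), and without any single one of the other 5 libraries it was -1.05 to -0.81 (edgeR adjusted p = 0.115 to 0.270), where the call was lost.

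The 3p arms of miR-138 did not pass the test. miR-138-1-3p, from the chromosome 9 locus, was at 0.946, 20.97 and 5.89 CPM in F1, F2 and F3 and at 4.01, 3.07 and 2.20 CPM in M1, M2 and M3. The female libraries thus held both the lowest and the highest values of the 6, and the groups overlapped. The log2 fold change was -1.80 ± 0.95 (SE, edgeR adjusted p = 0.334) with all libraries and -0.25 ± 0.97 (SE, edgeR adjusted p = 0.902) without female library 2. Female library 1 had 14 reads of this arm, with an exact Poisson interval of 0.517 to 1.59 CPM at 95%, and female library 2 had 1245 reads. By the estimates of reads per molecule these counts stand for about 0.985 and 6.36 molecules.

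miR-138-2-3p, from the chromosome 8 locus, stood at 12.0, 20.2 and 20.8 CPM in F1, F2 and F3 and at 19.5, 23.2 and 18.9 CPM in M1, M2 and M3. The groups overlapped, with female library 1 lowest. Its log2 fold change was 0.08 ± 0.44 (SE, edgeR adjusted p = 0.966), and the sign changed with the setting, from -0.15 with the GC offset to 0.25 without female library 2. In female library 2, miR-138-1-3p, miR-138-2-3p, miR-129-1-3p and miR-129-2-3p had 1245, 1201, 1240 and 1206 reads, nearly the same number, which is about 6.14 to 6.36 estimated molecules each. In the other 5 libraries these 4 arms ranged from 14 to 1917 reads and were not alike.

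Summed over its 3 arms, miR-138 varied less within each sex, relative to its mean, than any of its arms. The sums were 89.0, 86.6 and 92.8 CPM in F1, F2 and F3 and 59.4, 56.3 and 57.6 CPM in M1, M2 and M3. The mean was 89.4 ± 3.13 CPM in females and 57.8 ± 1.55 in males (SD, n = 3 each), 1.55 times as high in females, with no overlap. The sum in female library 2 includes the high value of miR-138-1-3p beside the lowest female value of miR-138-5p. There miR-138-5p, miR-138-1-3p and miR-138-2-3p stood for about 13.8, 6.36 and 6.14 estimated molecules. The sums are in CPM of the library total, and their spread under TMM scaling was not tested. The reads of miR-138-5p were 5.85, 1.10 and 2.47 times those of both 3p arms in F1, F2 and F3 and 1.52, 1.146 and 1.73 times in M1, M2 and M3. These ratios overlapped between the sexes, with a difference in log2 ratio of -0.80 (pooled SD 0.88, 2-sided exact permutation test, p = 0.4, adjusted 0.5) that was -1.40 without female library 2 and -0.19 without female library 1. The ratio of miR-138-2-3p to miR-138-1-3p, a readout of the loci against each other, was 12.3, 0.965 and 3.52 in females and 4.84, 7.52 and 8.50 in males. The female values spanned those of the males, and the difference in log2 ratio of 0.96 (pooled SD 1.33, exact permutation p = 0.6, adjusted 0.6) was 0.04 without female library 2 and 1.88 without female library 1.

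miR-129-5p, the most abundant of the 8 arms, lay the other way, with higher values in males. Its level was 791, 757 and 573 CPM in F1, F2 and F3. It was 998, 1022.3 and 1082 CPM in M1, M2 and M3. The groups did not overlap, and female library 3 was lowest. The mean was 707 ± 118 CPM in females and 1034 ± 43.3 in males (SD, n = 3 each), 1.46 times as high in males. These CPM carry no TMM scaling, which the test used with factors of 0.883 for female library 2 and 1.14 for male library 1. With TMM scaling the log2 fold change was 0.42 ± 0.20 (SE), with an unadjusted p of 0.0437 that did not pass adjustment (edgeR's quasi-likelihood test, Benjamini-Hochberg adjusted p = 0.248). With library size scaling it was 0.55. Overlap of the sexes after TMM scaling was not tested. The arm passed the threshold under 3 of 17 alternatives: without female library 2 (0.54, edgeR adjusted p = 0.0343) and with 1 RUVr factor, a term for hidden variation, in edgeR (0.48, adjusted p = 0.0410) or DESeq2 (0.50, adjusted p = 0.0231).

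Neither 3p arm of miR-129 passed the test. miR-129-1-3p, from the chromosome 6 locus, was at 32.9, 20.9 and 23.0 CPM in F1, F2 and F3 and at 12.0, 19.7 and 15.1 CPM in M1, M2 and M3. All female values were above all male values, female library 2 and male library 2 being close. The log2 fold change was -0.81 ± 0.42 (SE, edgeR adjusted p = 0.328). Without female library 2 it was -0.88 ± 0.33 (SE, edgeR adjusted p = 0.0525), just above the threshold. miR-129-2-3p, from the chromosome 2 locus, was at 65.3, 20.3 and 35.5 CPM in females and at 65.3, 43.6 and 39.8 CPM in males. These groups overlapped, with female library 1 and male library 1 level at the top, and the log2 fold change of 0.19 ± 0.36 (SE, edgeR adjusted p = 0.850) became -0.10 ± 0.27 (SE, edgeR adjusted p = 0.840) without female library 2.

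The miR-129 family thus had values that were higher in males for its guide arm and higher in females for one of its 3p arms. The ratio of miR-129-2-3p to miR-129-1-3p, which compares the loci, was 1.98, 0.973 and 1.54 in F1, F2 and F3 and 5.41, 2.21 and 2.64 in M1, M2 and M3. Every male ratio was above every female ratio. In female library 2 the ratio rests on about 6.16 and 6.34 estimated molecules. miR-129-2-3p also matches the Mir129-1 hairpin with 1 mismatch, and whether reads were split between the loci was not tested. The difference in log2 ratio was 1.14 (pooled SD 0.61, 2-sided exact permutation test, p = 0.1, the lowest possible, adjusted 0.25), 0.85 without female library 2 and 0.75 without male library 1. miR-129-5p had 8.05, 18.4 and 9.79 times the reads of both 3p arms in females and 12.9, 16.1 and 19.7 times in males. These values overlapped, female library 2 lying among the males, and the difference in log2 ratio was 0.50 (pooled SD 0.49, exact permutation p = 0.3, adjusted 0.5). Without female library 2 the sexes did not overlap and the difference was 0.85, and without female library 1 it was 0.26. Summed over its 3 arms, miR-129 had 889.6, 798 and 631 CPM in females and 1075, 1086 and 1137 CPM in males, 1.42 times as high in males.

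**Figure D2:**
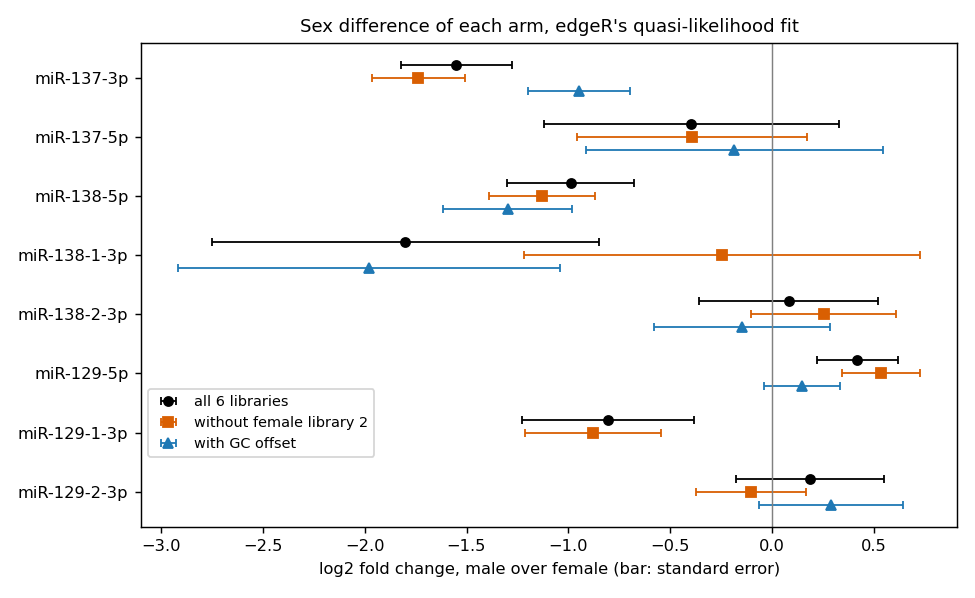
Log2 fold change, male over female (x axis), of each arm in edgeR's fit with all 6 libraries (black circles), without female library 2 (orange squares) and with the GC offset (blue triangles), with the standard error as bar. miR-137-3p (-1.55) and miR-138-5p (-0.99) lie below 0 in all 3 fits, miR-129-5p (0.42) above 0, and miR-138-1-3p moves from -1.80 to -0.25 when female library 2 is left out.

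**Figure D3:**
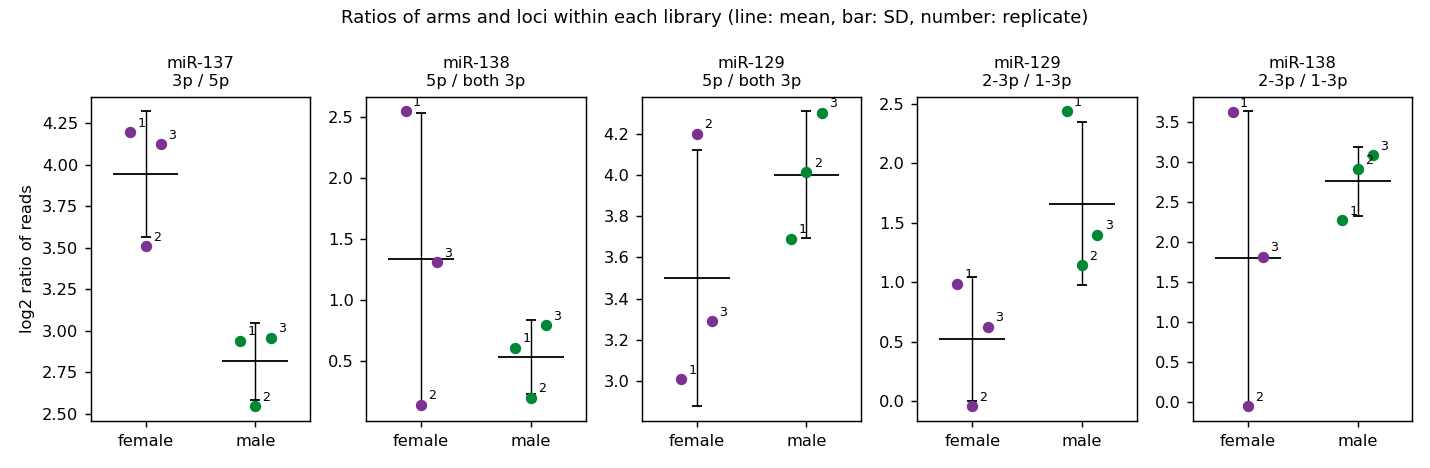
Log2 ratio of reads between arms or loci of a family within each library (y axes, each with a range of its own that need not include 0), for 3 female (purple) and 3 male (green) libraries numbered by replicate, with mean (line) and SD (bar). The sexes do not overlap for miR-137-3p over miR-137-5p, higher in females, and for miR-129-2-3p over miR-129-1-3p, higher in males, while female library 2 has the lowest value of the females in 4 of the 5 panels and the highest in miR-129-5p over its 3p arms.

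The sex difference of miRNAs moved with the GC content of the mature sequence across the whole table. Taking the 474 miRNAs of known sequence that averaged 100 reads or more, the median log2 fold change was -0.82 for the 84 with up to 40% GC, -0.17 for the 204 above 40% and up to 50%, 0.26 for the 111 above 50% and up to 60%, and 0.20 for the 75 above 60%. In the class of up to 40%, 28 miRNAs were called higher in females and 3 higher in males. The GC content was 34.8% for miR-137-3p, 43.5% for miR-137-5p, 56.5% for miR-138-5p, 59.1% for miR-138-1-3p, 52.4% for miR-138-2-3p, 57.1% for miR-129-5p and 45.5% for miR-129-2-3p.

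miR-137-3p thus lies in the GC class whose median is furthest toward females, and its own value of -1.55 is beyond that median of -0.82. With an offset for GC content fitted in each library, it moved to -0.95 ± 0.25 (SE, edgeR adjusted p = 0.0193) and was still called. miR-138-5p lies in a class whose median is on the male side, and the offset moved it away from 0, to -1.30 ± 0.32 (SE, edgeR adjusted p = 0.0112). miR-129-5p, in the same class, moved from 0.42 toward 0, to 0.15 ± 0.19 (SE, edgeR adjusted p = 0.772). What part GC content has in these differences was not tested beyond this offset.

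**Figure D4:**
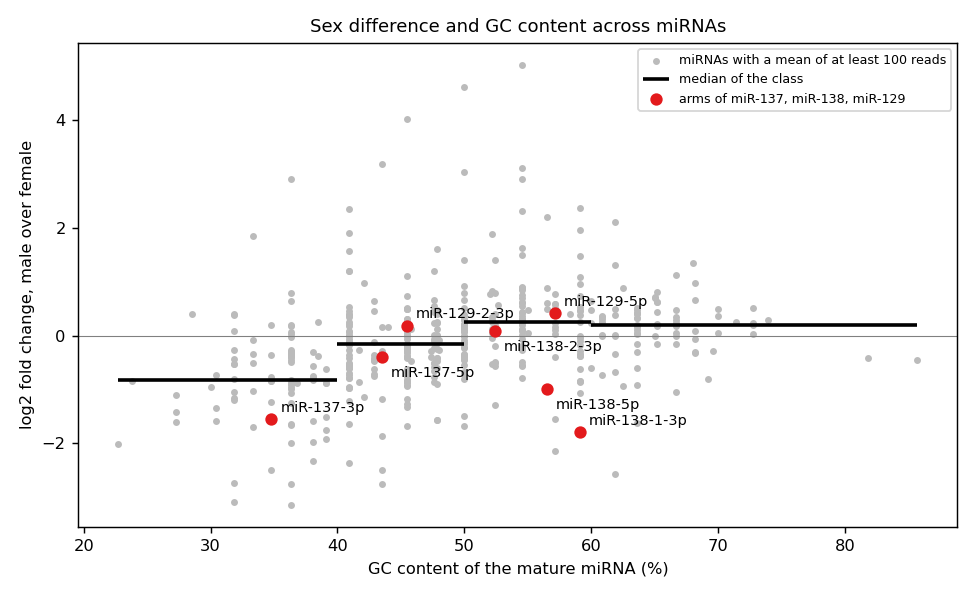
Log2 fold change, male over female (y axis), against GC content of the mature sequence in percent (x axis) for 474 miRNAs averaging 100 reads or more (grey), with the median of each GC class (black lines: -0.82, -0.17, 0.26 and 0.20) and the 7 arms with a sequence (red). miR-137-3p lies below the median of its class at 34.8% GC, miR-138-5p and miR-138-1-3p lie well below theirs, and miR-129-5p lies near it.

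Some markers of other cell types also differed between these libraries. The summed CPM of 4 skeletal muscle miRNAs was 388 to 1180.1 in females and 5497 to 6139 in males, with 4 of 4 called higher in males. For 6 epithelial miRNAs the sums were 429 to 1133 and 7989.5 to 8284, with 5 of 6 called higher in males and miR-141-3p at 0 in female library 2. For 8 miRNAs of mesenchyme and vessels the sums were 12049 to 23899 and 25367 to 29102, with 4 called higher in males and 1 in females. The 4 were miR-199a-5p, miR-199a-3p, miR-214-3p and miR-140-3p. By log2 fold change 6 of the 8 were higher in males and 2 lower. The 2 were miR-126a-3p, which was called (-0.91, edgeR adjusted p = 0.0172), and miR-143-3p, which was not (-0.61, edgeR adjusted p = 0.104). For 3 red blood cell miRNAs the sums were 646 to 1354 and 1595 to 1972, with 1 called higher in males. That was miR-486a-5p, which made up most of these sums (611 to 1341 and 1571 to 1930 CPM). The log2 fold change was 0.18 for miR-451a and -0.97 for miR-144-3p, neither called (edgeR adjusted p = 0.869 and 0.703). Hindbrain and spinal cord miRNAs had the higher sums in females, with 8613 to 12290.4 CPM in females and 1659 to 2055 in males. Of these, 2 of 4 were called higher in females. The other 2 of these, miR-196a-5p and miR-196b-5p, were at 0 in female libraries 2 and 3 and male libraries 1 and 3. The part of these cell types in the differences of miR-137-3p, miR-138-5p and miR-129-5p was not tested.

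The defining brain miRNAs miR-9-5p, miR-124-3p and miR-128-3p were abundant in every library, summing to 193094 to 211713 CPM in females and 162351 to 187853 CPM in males, which matches the labelled tissue. Of the 3, 0 were called by edgeR and by DESeq2, 1 (miR-124-3p, lower in males) had an unadjusted p under 0.05 in edgeR, and 1 was called by DESeq2 with 1 RUVr factor. Leukocyte miRNAs summed to 96.2 to 117 CPM in females and 113 to 126 CPM in males, with 0 of 3 called by edgeR or DESeq2 and 0 with an unadjusted p under 0.05. Without female library 2, 0 of the 3 were called by edgeR, and 1 was higher in females at an unadjusted p under 0.05. The 3 brain miRNAs are also in the neuronal list that follows.

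A list of 24 other miRNAs was drawn up as neuronal, though not all are specific to neurons. miR-219a-5p and miR-338-3p, for example, are known from oligodendrocytes. Of the 24, 8 were called higher in females and 0 higher in males (edgeR), with a median log2 fold change of -0.46. Calls higher in females were 5.27% of all tested, and 68 of the 550 with at least 10 reads in every library, tested alone. At an unadjusted p under 0.05, 11 of the 24 were higher in females and 2 in males, and DESeq2 called 9 and 0. The 8 were miR-153-3p, miR-218-5p, miR-9-3p, miR-7a-5p, miR-7b-5p, miR-135a-5p, miR-135b-5p and miR-22-3p. The lowest value belonged to miR-153-3p, which acts on synaptic vesicle release, at -3.15 ± 0.43 (SE, edgeR adjusted p = 1.2e-05), and the highest to miR-212-3p, an activity-regulated miRNA, at 0.54 ± 0.41 (SE, edgeR adjusted p = 0.480). Without female library 2, 10 of the 24 were called higher in females and 0 in males. With the GC offset, 20 of the 24 had a value, and 2 were called higher in females, miR-153-3p and miR-22-3p, and 1 in males, miR-329-3p. With all libraries and no GC offset, miR-137-3p and miR-138-5p lay on the side of most of this list, and miR-129-5p did not. The list was written with earlier results of these data known, so a shared direction is a description and not independent support.

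The miRNAs whose levels ran most like those of the 3 guide arms were found by the root mean square difference of centred log2 CPM over the 6 libraries, among 549 miRNAs with at least 10 reads in each. Nearest to miR-137-3p were miR-1264-5p (0.185), miR-101a-3p (0.186) and miR-19b-3p (0.204), where the median over all 549 was 0.892. miR-101a-3p, for example, had 1367, 859 and 1583 CPM in F1, F2 and F3 and 495, 334 and 447 CPM in M1, M2 and M3, so that female library 2 was the lowest female library and male library 2 the lowest male library, as for miR-137-3p. Nearest to miR-138-5p were miR-106b-5p (0.151), miR-218-5p (0.155) and miR-369-3p (0.180), with a median of 0.660 over the 549. Nearest to miR-129-5p were miR-668-3p (0.0834), miR-484 (0.0839) and miR-377-5p (0.0849), with a median of 0.520.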

How the data were processed

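RNA from 3 female and 3 male pools of E15.5 whole brain was made into TruSeq small RNA libraries, grouped by the sex in the labels. The authors trimmed adaptors with cutadapt (v. 1.15), mapped reads with Bowtie (v. 1.2.1) and quantified known miRNAs (miRBase v.21, mm9) in the miRDeep2 workflow, and deposited raw read counts per mature miRNA without normalization. No molecular identifiers are named, so counts can include copies of a molecule.

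A total of 10 reads over the 6 libraries was required, which left 1120 miRNAs, and the sexes were compared in R 4.3.3 with edgeR 4.0.16 (TMM scaling, quasi-likelihood test, Benjamini-Hochberg adjustment over all 1120, threshold 0.05). The study's methods use DESeq2 with RUVr factors of unnamed number, so DESeq2 1.42.0 with 1 factor was an alternative. SEs are the absolute log2 fold change over the square root of F. Ratios used reads plus 0.5 and 2-sided exact permutation tests over libraries. The GC offset is a loess curve (span 0.75) per library, for the 951 of 1120 miRNAs (84.9%) with a RefSeq sequence, whose table is built on GRCm38.p6. Procedures were tested on simulated data.

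Other alternatives were library size and upper quartile scaling, DESeq2 alone, other filters, a replicate block, that block with the GC offset, a pseudocount of 1 for the ratios and each library left out. Counts divided by the estimated reads per molecule were added after the data were seen. The miRNAs named are the 8 arms, the 3 nearest profiles of each of 3 guide arms, any miRNA sharing a seed, and the highest and lowest of fixed lists. The called members of the neuronal list, miR-219a-5p, miR-338-3p, miR-124-3p, miR-329-3p, miR-141-3p and the miR-196 arms were named after their values were seen. So were the miRNAs named for red blood cells and for mesenchyme and vessels. The members and lists were chosen with earlier results of these data known.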

Additional observations from a re-analysis of the deposited data

How the results depend on the processing

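The precision was set by 3 pools per sex, and miR-138-1-3p had an estimated 0.985 to 8.46 molecules per library and an SE of 0.95. miR-137-3p was called under every alternative, with log2 fold changes of -1.62 to -0.94 over the settings that kept all libraries and -1.74 to -1.30 when each library was left out. Relative to the median of all miRNAs, which moved by over 0.1 with library size (0.12), 1 RUVr factor in edgeR (0.23) or DESeq2 (0.25), a filter of 10 reads in every library (-0.13), and without female library 1 (0.13), female library 3 (0.11) or male library 2 (-0.16), it was -1.81 to -0.91, miR-138-5p -1.31 to -0.78 and miR-129-5p 0.09 to 0.55 over all settings.

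The number of arms called, 2, became 1 with library size scaling, upper quartile scaling, no filter and the replicate block, and 1 to 3 when a library was left out. In each of the first 4 settings miR-138-5p was not called, at -0.87 (library size, adjusted p = 0.117), -0.92 (upper quartile, 0.0847), -0.91 (no filter, 0.0764) and -0.97 (replicate block, 0.0838). Leaving out libraries gave -1.13 to -0.81 for it. miR-129-5p passed the threshold with 1 RUVr factor in edgeR (0.48) and DESeq2 (0.50), and was 0.27 to 0.54 when a library was left out. miR-138-2-3p changed sign with the GC offset (-0.15) and with the replicate block and GC offset (-0.12), and was -0.10 to 0.25 when a library was left out, and miR-129-2-3p was -0.10 to 0.72. The cause of these changes was not tested. Of all miRNAs, 95 were called, 190 with RUVr in edgeR, 215 with RUVr in DESeq2, 56 with the GC offset, where fewer miRNAs were tested, and 30 (without male library 1) to 203 (without female library 2) when a library was left out. Leaving out each library gave -0.46 to -0.27 for miR-137-5p, -2.23 to -0.25 for miR-138-1-3p and -1.08 to -0.58 for miR-129-1-3p.

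Libraries share replicate numbers across the sexes, but same-numbered libraries did not deviate together (correlations of -0.05, -0.01 and 0.05), so the numbers were not read as pairs. The replicate block gave 92 calls and changed no other call of an arm than that of miR-138-5p. With counts divided by reads per molecule, added after the data were seen, 139 miRNAs and 2 arms were called, and miR-138-1-3p was at -0.87. The 5 ratios were recomputed with a pseudocount of 1, with the replicate block, which returns the same mean difference, and without each library, and kept their direction in these. Their sizes moved, most for miR-138-2-3p to miR-138-1-3p, 0.04 to 1.88 when a library was left out. Other settings were not run on the ratios.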
